A study of Mus musculus with 2 samples.

Results

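The genes of cholesterol and fatty acid synthesis were followed as a set of 34 named genes, among 43346 genes in the tables, in mouse embryonic intestine (strain B6NCrl, 14.5 days of gestation). The members were taken by symbol and ordered along the pathway, as 5 regulators, 7 enzymes from acetyl-CoA to farnesyl diphosphate (the mevalonate enzymes), 11 enzymes from squalene to cholesterol (the sterol enzymes), 4 genes of fatty acid synthesis and 7 genes of desaturation and elongation. The samples were 2 total RNA-seq libraries, replicates 2 and 1 of a single group, so the tables held no comparison between conditions. Each library came from 1 intestine, with 10 ng of total RNA over 200 nucleotides, extracted with the Ambion mirVana kit. Collection was on day 15 of the month for replicate 2 and on day 17 for replicate 1, with the same donor record for both. The labels gave both sexes for each, whereas Xist, the RNA of the inactive X chromosome, was at 0.06 TPM in replicate 2 and 77.2 TPM in replicate 1. TPM gives a gene's transcripts as a share of all transcripts in its library, after division by length, so levels can be compared between genes.

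Cells make cholesterol from acetyl-CoA through mevalonate, farnesyl diphosphate, squalene and lanosterol, and make fatty acids from acetyl-CoA through malonyl-CoA. Both routes are driven by the SREBP transcription factors, which are made as membrane proteins of the endoplasmic reticulum and are carried by Scap to the Golgi for cleavage when sterols are low. Insig proteins hold Scap back when sterols are high. In the intestine these pathways supply membranes of dividing cells and, once lipid is absorbed, the lipoproteins of enterocytes.

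All 34 members were detected, meaning TPM of at least 1 in both libraries, against 61.3% of 21474 protein-coding genes and 34.2% of all genes. Their median level was 69.8 ± 1.70 TPM (SD of the library medians, n = 2), against 18.4 ± 0.544 TPM for detected protein-coding genes and 4.90 TPM for all protein-coding genes. A mean of at least 50 TPM was reached by 22 members, against 22.9% of detected protein-coding genes, and a mean of at least 100 TPM by 9 members, against 11%. Only Acacb and Scd1 had a mean under 10 TPM. The highest group median was that of the mevalonate enzymes, at 86.9 ± 5.23 TPM, followed by desaturation and elongation at 76.8 ± 4.53, the regulators at 69.7 ± 6.14, the sterol enzymes at 55.7 ± 4.62 and fatty acid synthesis at 51.4 ± 1.46. The range within each of the 5 groups was wider than the distance between group medians, as the mevalonate enzymes ran from 44.2 to 289 TPM and fatty acid synthesis from 1.82 to 134 TPM. Together the members held 2895 TPM in replicate 2 and 2649 TPM in replicate 1, which was 0.368% and 0.334% of protein-coding TPM.

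**Figure D1:**
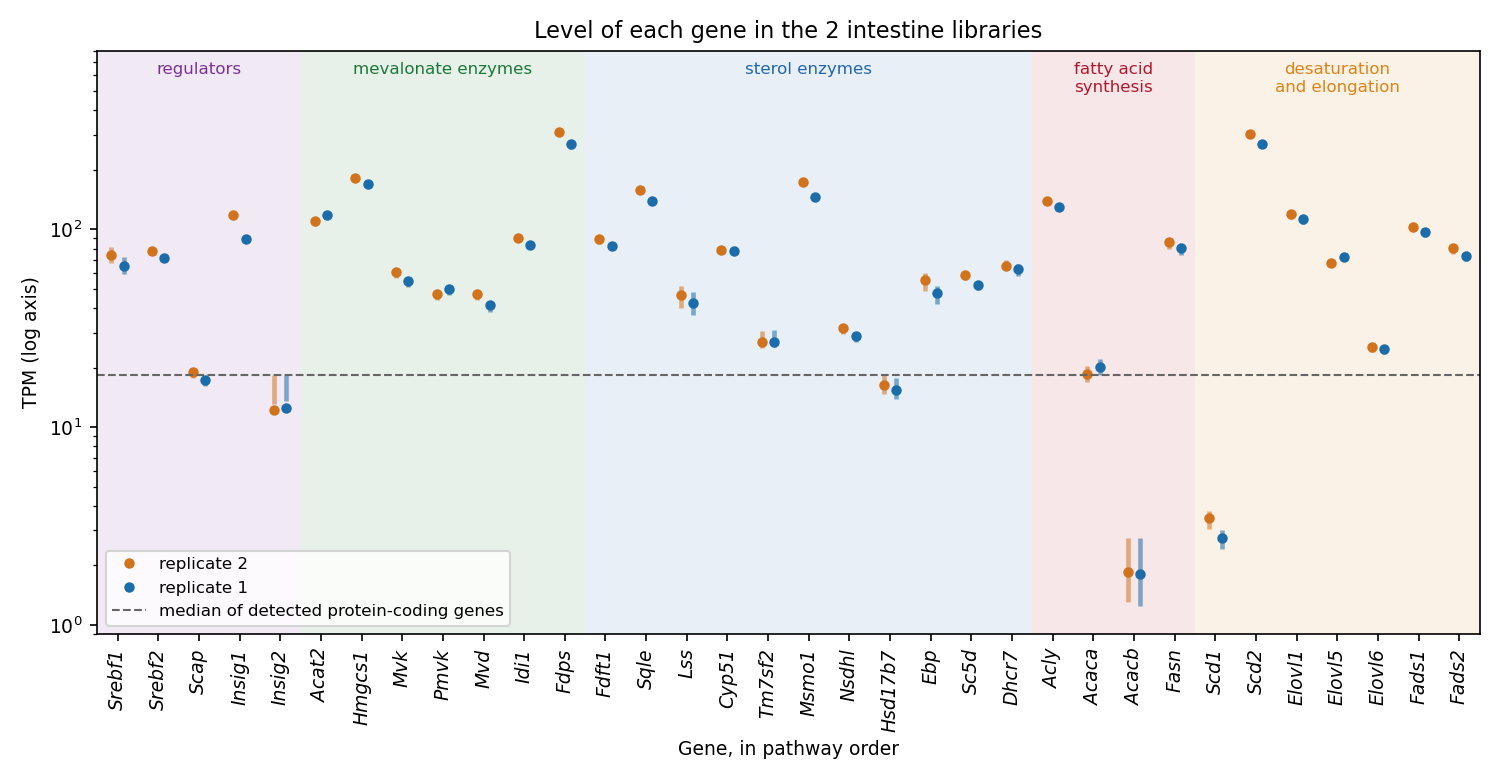
TPM of each of the 34 genes in replicates 2 and 1 (points, log axis), with the deposited 95% interval as a bar, in pathway order with the 5 groups shaded. The 2 libraries differ by at most 32.0%, for Insig1, which is small on this axis. Fdps and Scd2 stand highest, while Acacb and Scd1 lie far under the dashed median of detected protein-coding genes, 18.4 TPM.

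The libraries held 32371363 estimated counts in genes in replicate 2 and 32938592 in replicate 1, and the members had from 140 to 38012 counts each. With 1 group there was no test, and differences are set against the spread of the 2 libraries and against the 95% interval of each TPM value that was deposited with it. That interval covers the error of counting and of assigning reads, not differences between embryos. It is centred on a posterior mean, and TPM lay above it for 8 members in replicate 2 and 7 in replicate 1, and below it for Insig2 in both. The counts of 10 members were not whole numbers in either library (within 0.005), and are estimates. The tissue held epithelial markers (Epcam, Cdx2, Vil1, Krt8 and Lgals4), all 5 detected, and markers of smooth muscle and mesenchyme, all 5 detected. In whole tissue, more cells of a type and more RNA per cell cannot be told apart. Of markers of other lipid-making tissues, Adipoq, Plin1, Lep and Cfd of adipocytes had 0 counts in both libraries, and Cidec alone of the 5 was detected. Of the 7 liver markers 4 were detected, and the 7 summed to 111 and 107 TPM in replicates 2 and 1. Serpina1b had 45.7 and 46.3 TPM in replicates 2 and 1, Ttr had 44.3 and 30.0 TPM in replicates 2 and 1 and Afp had 17.3 and 24.9 TPM in replicates 2 and 1. Serpina1b and Ttr were thus above the 18.4 TPM median of detected protein-coding genes in both libraries, whereas the defining liver gene Alb was at 0.13 TPM in replicate 2 and 0.82 TPM in replicate 1. The part of liver transcripts in the members' levels was not tested. Markers of adrenal and gonad, which make steroids from cholesterol, summed to 3.72 and 5.16 TPM in replicates 2 and 1, with 2 of 4 detected. Those of myelinating glia, which also make much cholesterol, summed to 19.3 and 19.4 TPM, with 2 of 4 detected.

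Both SREBP genes were expressed at like levels. Srebf2 (ENSMUSG00000022463.7, chromosome 15, 82147181 to 82205379), which encodes SREBP-2, the main activator of cholesterol synthesis genes, had 78.1 TPM in replicate 2 and 71.8 TPM in replicate 1. Srebf1 (ENSMUSG00000020538.11, chromosome 11, 60199089 to 60222581), which encodes SREBP-1a and SREBP-1c and acts mainly on fatty acid genes, had 74.0 TPM in replicate 2 and 65.3 TPM in replicate 1. Their ratio, Srebf2 over Srebf1, was 1.06 in replicate 2 and 1.10 in replicate 1, and their intervals overlapped. Counting protein-coding transcripts alone, the mean log2 ratio was 0.96 in place of 0.11 ± 0.04, since Srebf1 was then at 41.4 and 35.6 TPM in replicates 2 and 1.

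The Srebf1 locus has separate starts, and most of its estimated counts lay on the SREBP-1a transcript. Srebf1-201, whose first exon holds 91 coding bases, was taken as SREBP-1a, and Srebf1-207, which starts further along the gene with 19 coding bases in its first exon, as SREBP-1c. SREBP-1a is known as the stronger activator, with the longer activation domain, and SREBP-1c as the form that dominates in adult liver and fat. Srebf1-201 had 29.1 TPM from 2871 counts in replicate 2 and 27.0 TPM from 2636 counts in replicate 1. Srebf1-207 had 8.87 TPM from 642 counts in replicate 2 and 7.67 TPM from 548 counts in replicate 1. SREBP-1a was thus 3.28 and 3.52 times SREBP-1c in TPM, with intervals that did not overlap in either library (26.1 to 29.8 against 7.09 to 10.6 TPM in replicate 2, and 24.3 to 27.6 against 5.91 to 9.10 TPM in replicate 1). One more model, Srebf1-204, a processed transcript with no coding sequence, held 28.7 and 24.4 TPM in replicates 2 and 1 from 181 and 152 counts, since its effective length is 268 bases against 4200 for Srebf1-201. Reads of exons that these models share were divided by estimate, so the split is less certain than the gene's total. The Srebf1-207 model also ends at 60200463, short of Srebf1-201, which runs on to 60199089 on the minus strand. Reads beyond the end of Srebf1-207 could not be assigned to it, whichever start they came from. The intervals do not cover this, and its effect on the ratio was not tested.

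The promoters of both forms are shown because they differ in the motifs they hold. The windows come from RefSeq on build GRCm38.p6, run from 250 bases before to 50 bases after a start, and are written 5′ to 3′ along the gene. Capitals mark CCAAT boxes (CCAAT), bound by NF-Y, GC boxes (GGGCGG), bound by Sp1, and sterol regulatory elements (TCACNCCAC), the site bound by SREBP, on either strand. NF-Y and Sp1 are known partners of SREBP at sterol-regulated promoters. The SREBP-1a window is chr11:60220578-60220877 on the minus strand, with 3 GC boxes and no CCAAT box, and the SREBP-1c window is chr11:60210422-60210721 on the minus strand, with 2 GC boxes and 1 CCAAT box.
Srebf1, SREBP-1a start: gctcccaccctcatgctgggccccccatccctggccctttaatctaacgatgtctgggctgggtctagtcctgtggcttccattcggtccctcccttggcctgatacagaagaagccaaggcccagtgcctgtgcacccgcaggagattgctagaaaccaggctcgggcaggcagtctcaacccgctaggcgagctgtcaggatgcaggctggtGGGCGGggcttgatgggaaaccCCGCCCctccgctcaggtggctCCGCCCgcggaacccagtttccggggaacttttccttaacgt
Srebf1, SREBP-1c start: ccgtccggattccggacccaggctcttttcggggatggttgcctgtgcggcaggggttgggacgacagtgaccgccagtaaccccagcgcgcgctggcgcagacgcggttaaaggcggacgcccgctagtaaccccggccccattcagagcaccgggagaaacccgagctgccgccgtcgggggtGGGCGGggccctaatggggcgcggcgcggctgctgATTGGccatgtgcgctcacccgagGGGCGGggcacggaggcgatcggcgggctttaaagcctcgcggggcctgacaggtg
A match is a description of the letters in the window and does not show binding.

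The genes that move and hold the SREBPs differed widely in level. Scap, the escort, had 19.0 and 17.3 TPM in replicates 2 and 1, with intervals that did not overlap between libraries. Insig1 (ENSMUSG00000045294.10, chromosome 5, 28071363 to 28078662), itself a known SREBP target whose protein closes the feedback loop, had 118 TPM in replicate 2 and 89.5 TPM in replicate 1. Its paralog Insig2, known in liver for transcription that does not depend on SREBP, had 12.2 and 12.6 TPM in replicates 2 and 1. Insig1 was 9.71 and 7.13 times Insig2 in replicates 2 and 1, a mean log2 ratio of 3.06 ± 0.32 (SD, n = 2), with intervals apart in both libraries. The Insig2 level is less certain, since its posterior mean was 15.7 and 15.9 TPM in replicates 2 and 1. The 2 proteases that cut the SREBPs in the Golgi were both detected, with Mbtps1 at 79.96 and 87.9 TPM in replicates 2 and 1 and Mbtps2 at 18.3 and 19.8 TPM in replicates 2 and 1. The Insig1 window, chr5:28071162-28071461 on the plus strand, is shown as that of the member which differed most between the embryos, and holds 1 CCAAT box and 3 GC boxes.
Insig1: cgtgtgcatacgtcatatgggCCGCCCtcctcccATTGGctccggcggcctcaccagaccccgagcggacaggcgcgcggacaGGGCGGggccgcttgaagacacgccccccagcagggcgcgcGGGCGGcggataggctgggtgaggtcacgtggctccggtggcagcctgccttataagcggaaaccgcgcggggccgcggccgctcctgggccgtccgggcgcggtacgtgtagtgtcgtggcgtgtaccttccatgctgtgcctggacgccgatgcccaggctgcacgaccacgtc

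The mevalonate enzymes included the highest member of all. Fdps, farnesyl diphosphate synthase (ENSMUSG00000059743.8, chromosome 3, 89093588 to 89101959), had 309.7 TPM in replicate 2 and 269 TPM in replicate 1, a mean of 289 ± 29.0 TPM (SD, n = 2). It makes the last intermediate before the sterol branch parts from the isoprenoids. Hmgcs1, the cytosolic HMG-CoA synthase (ENSMUSG00000093930.1, chromosome 13, 119690379 to 119708260), had 182 and 169 TPM in replicates 2 and 1. Acat2, the acetyl-CoA acetyltransferase of the cytosol that opens the pathway, had 109.6 and 118.5 TPM in replicates 2 and 1. Acat2 was the exception among the members in being lower in replicate 2 with intervals that did not overlap. Idi1, the isopentenyl diphosphate isomerase, had 90.6 and 83.2 TPM in replicates 2 and 1. The kinases Mvk and Pmvk and the decarboxylase Mvd convert mevalonate to isopentenyl diphosphate in succession, and lay close together at mean levels of 57.8, 48.6 and 44.2 TPM. Mvk had 60.6 and 54.9 TPM in replicates 2 and 1, with overlapping intervals. Pmvk had 47.0 and 50.2 TPM in replicates 2 and 1, again with overlap. Mvd had 47.0 and 41.3 TPM in replicates 2 and 1, with intervals apart.

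Windows of both an early enzyme and the mevalonate kinase are shown because they held the most motifs. The Hmgcs1 window (chr13:119690101-119690400, plus strand) was the single member window with the sterol regulatory element as spelled above, beside 4 CCAAT boxes and 3 GC boxes. The Mvk window (chr5:114444019-114444318, plus strand) held 5 CCAAT boxes and 2 GC boxes.
Hmgcs1: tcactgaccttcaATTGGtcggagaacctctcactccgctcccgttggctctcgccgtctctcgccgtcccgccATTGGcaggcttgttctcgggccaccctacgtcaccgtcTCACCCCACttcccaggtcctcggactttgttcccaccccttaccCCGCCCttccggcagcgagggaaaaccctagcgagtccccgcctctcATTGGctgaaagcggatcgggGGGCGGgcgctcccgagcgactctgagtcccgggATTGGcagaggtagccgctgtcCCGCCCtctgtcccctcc
Mvk: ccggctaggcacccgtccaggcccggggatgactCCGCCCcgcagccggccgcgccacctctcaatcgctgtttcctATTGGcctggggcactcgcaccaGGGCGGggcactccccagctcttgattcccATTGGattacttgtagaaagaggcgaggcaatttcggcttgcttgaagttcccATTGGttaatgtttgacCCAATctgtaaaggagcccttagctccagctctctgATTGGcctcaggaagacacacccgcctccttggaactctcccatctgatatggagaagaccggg
RefSeq windows were matched for 28 of the 34 members, 37 windows in all, and Fdps, Fdft1, Sqle, Scd1, Scd2 and Fads1 had no entry. A CCAAT box was present in the windows of 23 of 28 members and in 64.9% of their windows, against 37.4% of 32851 windows of all genes and 37.8% of 19931 windows of protein-coding genes. It was present in all 9 sterol enzymes with a window, 5 of 6 mevalonate enzymes, 4 of 5 regulators, 3 of 4 fatty acid synthesis genes and 2 of 4 genes of desaturation and elongation. A GC box was present for 22 of 28 members and in 73.0% of their windows, against 35.7% of all windows and 48.1% of protein-coding windows. The sterol regulatory element was present in 2.70% of member windows and 1.24% of all windows. In 2 of the 37 windows, matches overlapped each other. Other spellings of the element were not searched, and a window without the letters says nothing of SREBP binding.

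Other branches from the same intermediates were expressed too. All 7 genes of the isoprenoid branch were detected, from Fnta, the shared subunit of protein prenyltransferases, at 65.8 and 76.3 TPM in replicates 2 and 1 to Pdss2, of coenzyme Q side chain synthesis, at 9.59 and 10.98 TPM in replicates 2 and 1. None of them was higher in replicate 2 with intervals apart, and Ggps1, Fnta and Fntb were lower with intervals apart. Of all 11324 genes with a mean of at least 5 TPM, 7.23% were higher and 17.9% lower in this way. Of the 7 genes that supply acetyl-CoA and NADPH all were detected, from Idh1, cytosolic isocitrate dehydrogenase, at 154 and 157 TPM in replicates 2 and 1 to Me1, malic enzyme, at 9.10 and 8.79 TPM in replicates 2 and 1. Pgd of the pentose phosphate pathway was the only one with intervals apart, at 59.8 and 53.0 TPM in replicates 2 and 1.

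Among the sterol enzymes, levels spanned about an order of magnitude, with Msmo1 and Sqle at the top and Hsd17b7 at the bottom. Fdft1, squalene synthase, had 89.1 and 82.7 TPM in replicates 2 and 1. Sqle, the squalene epoxidase and a known control point of the pathway (ENSMUSG00000022351.10, chromosome 15, 59315077 to 59331192), had 159 TPM in replicate 2 and 139.5 TPM in replicate 1. Both had intervals that did not overlap between libraries. Lss, which closes squalene epoxide into lanosterol, had 46.3 and 42.6 TPM in replicates 2 and 1. The steps after lanosterol remove methyl groups and shift or reduce double bonds. Cyp51, the lanosterol demethylase, had 78.6 and 77.5 TPM in replicates 2 and 1, a log2 difference of 0.02. Tm7sf2, a sterol reductase, had 26.9 and 27.0 TPM in replicates 2 and 1. These were among the most even members between the embryos. Msmo1, methylsterol monooxygenase, had 173 TPM in replicate 2 and 146 TPM in replicate 1, a mean of 159.8 ± 19.4 TPM (SD, n = 2). Its partners in demethylation were lower, with the dehydrogenase Nsdhl at 31.7 and 29.0 TPM in replicates 2 and 1. Hsd17b7, the ketone reductase of that complex, had 16.4 and 15.3 TPM in replicates 2 and 1. The demethylation steps carried mean levels of 159.8 for Msmo1, 30.3 for Nsdhl and 15.9 TPM for Hsd17b7. The final reactions move and reduce the remaining double bonds. Ebp, the sterol isomerase, had 55.5 and 47.4 TPM in replicates 2 and 1. Sc5d, the sterol desaturase, had 59.0 and 52.4 TPM in replicates 2 and 1. Dhcr7, the reductase that is mutated in Smith-Lemli-Opitz syndrome in humans, had 65.2 and 63.1 TPM in replicates 2 and 1. Of these 3, only Sc5d had intervals apart. Ebp and Nsdhl lie on the X chromosome, and Xist differed between the embryos as given above, so whether X dosage bears on them was not tested.

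Fatty acid synthesis was expressed with 1 weak member. Acly, the citrate lyase that makes cytosolic acetyl-CoA, had 139 and 129 TPM in replicates 2 and 1, with intervals apart. Fasn, fatty acid synthase (ENSMUSG00000025153.8, chromosome 11, 120805846 to 120824547), had 86.5 TPM in replicate 2 and 80.8 TPM in replicate 1. Acaca, the acetyl-CoA carboxylase that makes malonyl-CoA for synthesis, had 18.4 and 20.1 TPM in replicates 2 and 1. Acacb, the paralog at the mitochondrial surface whose malonyl-CoA restrains fatty acid oxidation, had 1.84 and 1.80 TPM in replicates 2 and 1 from 141 and 140 counts. Acaca stood 10.0 and 11.1 times above Acacb in replicates 2 and 1, a mean log2 ratio of 3.40 ± 0.11 (SD, n = 2), with intervals apart in both. With protein-coding transcripts alone that log2 ratio was 5.01, as most Acacb TPM lay on retained-intron models. The leading one of these, Acacb-203, rested on 7.52 and 7.15 counts in replicates 2 and 1.

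Desaturases showed the widest gap between paralogs. Scd2 (ENSMUSG00000025203.5, chromosome 19, 44293674 to 44306864), the stearoyl-CoA desaturase known from embryonic and neonatal mouse tissues, had 302 TPM in replicate 2 and 269 TPM in replicate 1. Scd1 (ENSMUSG00000037071.2, chromosome 19, 44394455 to 44407879), the form known from adult liver and fat, had 3.47 TPM in replicate 2 and 2.76 TPM in replicate 1. These values came from 38012 and 33441 counts for Scd2 and from 387 and 304 counts for Scd1. Scd2 was 87.1 and 97.4 times Scd1 in replicates 2 and 1, a mean log2 ratio of 6.53 ± 0.11 (SD, n = 2), with intervals apart in both. The paralogs share sequence, and counts of both were not whole numbers, so the split of reads between them is uncertain. The other members of the cluster were lower still, as Scd3 had 0.05 and 0.16 TPM in replicates 2 and 1 and Scd4 had 0.07 and 0.16 TPM in replicates 2 and 1.

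Elongases and front-end desaturases had moderate to high levels. Elovl1, which extends saturated very long chains, had 119 and 113 TPM in replicates 2 and 1. Elovl5, which extends polyunsaturated chains, had 67.9 and 72.2 TPM in replicates 2 and 1. Elovl6, which extends palmitate, had 25.4 and 24.9 TPM in replicates 2 and 1. Elovl1 was 4.69 and 4.54 times Elovl6, and Elovl5 was 2.67 and 2.90 times Elovl6, in replicates 2 and 1, with intervals apart in both libraries. Fads2 had 80.01 and 73.6 TPM in replicates 2 and 1, and Fads1 had 103 and 96.4 TPM in replicates 2 and 1. These desaturases work in succession in making polyunsaturated fatty acids. The Fads2 to Fads1 ratio was 0.7797 in replicate 2 and 0.763 in replicate 1, a log2 ratio of -0.37 ± 0.02 (SD, n = 2), with Fads1 above Fads2 beyond the intervals in both. Of 12 elongation partners and further desaturases, 9 were detected, led by the reductase gene Tecr, of the same elongation cycle, at 462 and 477 TPM in replicates 2 and 1. Elovl3 had 0 counts in both libraries. In this list Fads3 was higher in replicate 2 with intervals apart, and Elovl2 and Hacd3 were lower. The shares over genes with a mean of at least 5 TPM were 7.23% higher and 17.9% lower.

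**Figure D2:**
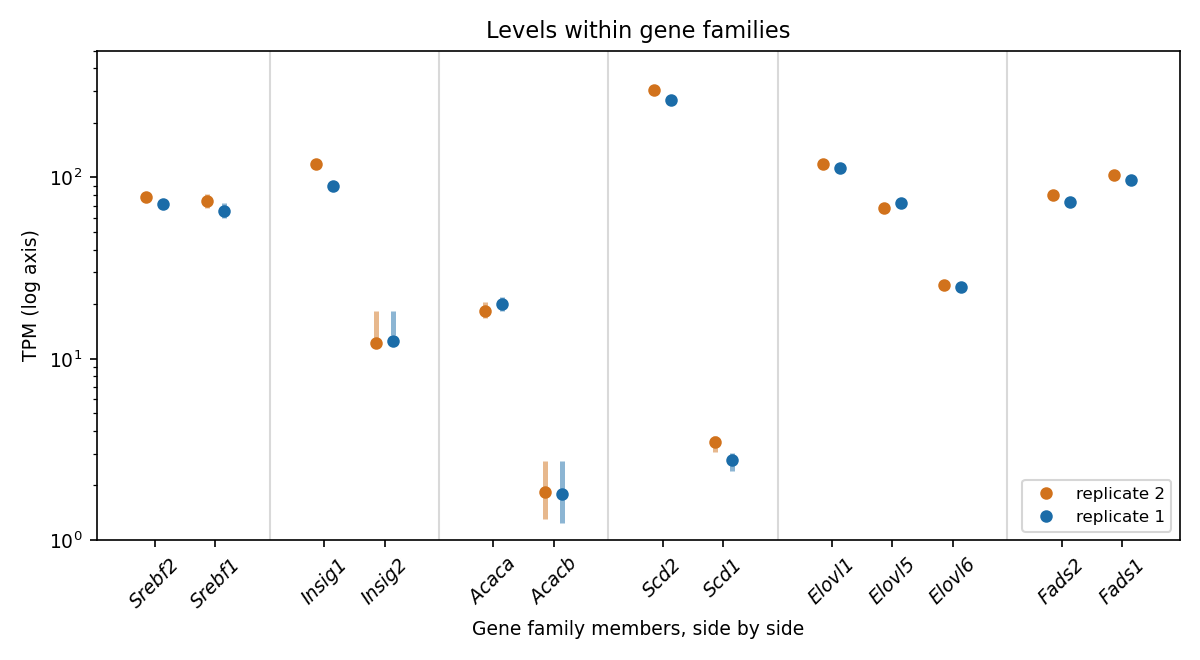
TPM (log axis) of the members of 6 gene families in replicates 2 and 1, with deposited 95% intervals as bars. Srebf2 and Srebf1 overlap, while Scd2 lies 87.1 and 97.4 times above Scd1 and Insig1 lies 9.71 and 7.13 times above Insig2.

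In order of level, 8 of the 33 neighbouring pairs had intervals apart in both libraries. Fdps and Scd2 shared the top and did not differ beyond their intervals, and both stood above Hmgcs1. Further breaks in the order lay between Msmo1 and Sqle, Sqle and Acly, Acly and Elovl1, and Fads1 and Idi1. The first of these was narrow, as in replicate 1 the Msmo1 interval began at 139.219 TPM and that of Sqle ended at 139.155 TPM. With protein-coding transcripts alone its order was reversed, at 96.5 TPM for Msmo1 and 147 TPM for Sqle. From Idi1 down to Mvd, from 86.9 to 44.2 TPM, no neighbours were apart. The lower breaks lay between Mvd and Nsdhl, Elovl6 and Acaca, and Insig2 and Scd1.

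Most members were higher in replicate 2 as deposited, though 19 of 32 after spike-in scaling, and the largest difference was 32.0%. Of the 34 members 28 were higher in replicate 2, and their median log2 difference in TPM + 1, replicate 2 minus replicate 1, was 0.11. Among 11324 genes with a mean of at least 5 TPM, 37.2% were higher in replicate 2 and the median difference was -0.05. No member reached a difference of 1 with intervals apart, as 0.495% of those genes did, and 32 members were within 20% between libraries. Of the 32 members at that level, 15 were higher in replicate 2 with intervals that did not overlap, against 7.23% of those genes, and 1 was lower, Acat2, against 17.9%. At any level, 16 members were higher with intervals apart, the further one being Scd1. The 15 were Srebf2, Scap, Insig1, Hmgcs1, Mvd, Idi1, Fdps, Fdft1, Sqle, Msmo1, Sc5d, Acly, Scd2, Fads1 and Fads2. Intervals are narrower at high levels. Among genes with a mean of at least 50 TPM, 13 of 22 members were higher with intervals apart, against 11.4% of 3158 genes, and 1 member was lower, against 26%.

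**Figure D3:**
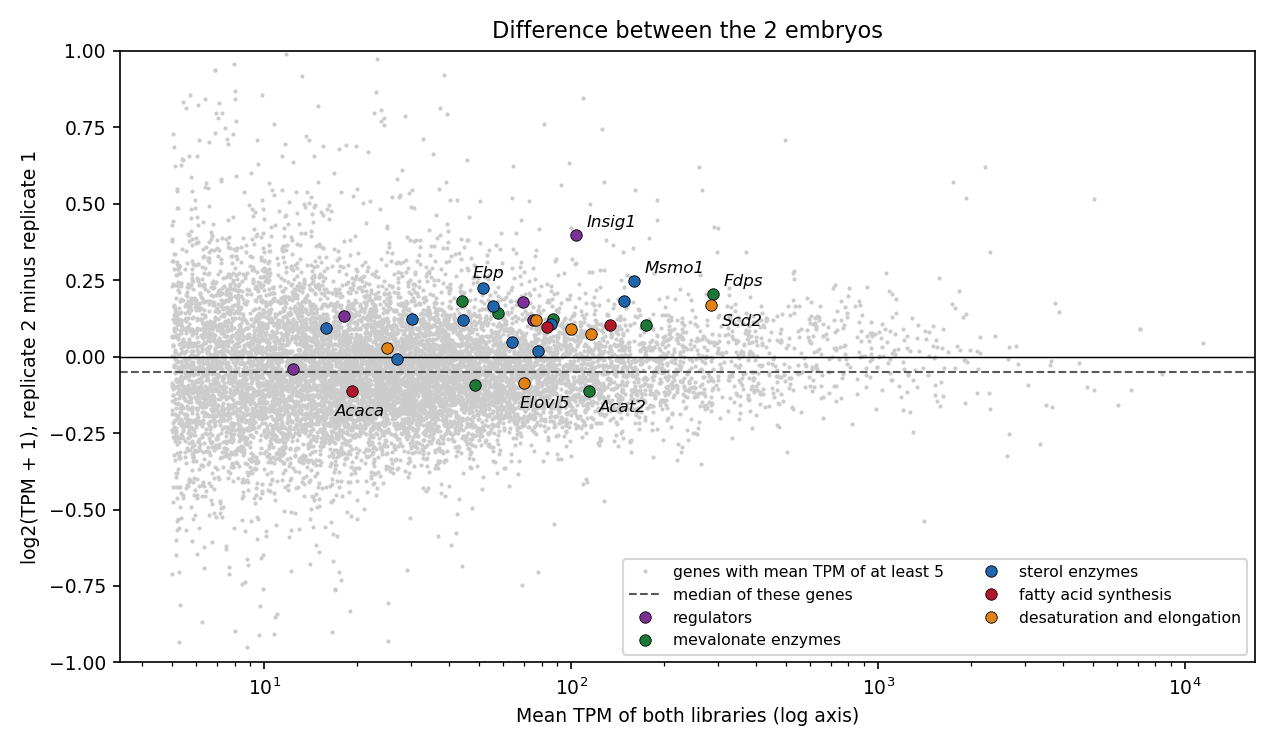
Difference of log2(TPM + 1), replicate 2 minus replicate 1, against mean TPM (log axis) for genes with a mean of at least 5 TPM (grey) and the members above that level (coloured by group). As deposited, 26 of these 32 members lie above 0, against 19 after spike-in scaling, led by Insig1 at 0.40, while the dashed median of all genes is -0.05, and 81 genes beyond 1 in either direction are outside the axis.

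Insig1 showed the largest difference among the members. Insig1 was 1.32 times as high in replicate 2, a log2 difference of 0.40, with intervals (TPM) of 113 to 118 in replicate 2 and 85.0 to 89.7 in replicate 1. That was larger than the absolute difference of 98.6% of genes with a mean of at least 50 TPM. Scd1, at low counts, was 1.26 times as high in replicate 2, with intervals (TPM) of 3.06 to 3.75 in replicate 2 and 2.41 to 3.01 in replicate 1 that did not overlap. Msmo1 differed by 0.25, Ebp by 0.22, Fdps by 0.20 and Sqle by 0.18 on the log2 scale. By group and as deposited, 10 of 11 sterol enzymes were higher in replicate 2, 6 of 7 genes of desaturation and elongation, 5 of 7 mevalonate enzymes, 4 of 5 regulators and 3 of 4 fatty acid synthesis genes. These counts include Scd1 and Acacb, and the share over all genes with a mean of at least 5 TPM was 37.2%. They were not made by group after spike-in scaling, which left 19 of 32 members higher. The 6 members lower in replicate 2 were Insig2, Acat2, Pmvk, Tm7sf2, Acaca and Elovl5, by at most 0.11 on the log2 scale.

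The size of this difference depended on the scaling. TMM and DESeq2 factors each moved replicate 2 by 0.05 on the log2 scale, after which 18 members were higher with intervals apart and 0 lower, against 12.1% and 10.5% of genes by TMM. Spike-in scaling moved it by -0.10, after which 5 members were higher and 3 lower, against 2.81% and 39.3% of genes, and 19 of 32 members above 5 TPM were higher in replicate 2. Each factor shifts all genes of replicate 2 alike, so the members' median less the median of all genes stayed at 0.16 by construction. That value was 0.14 by posterior mean TPM and 0.11 without the minimum of 5 TPM. Insig1 differed by 0.30 to 0.45 over all scalings.

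Cell-type markers moved between the same libraries. Epithelial markers summed to 1573 TPM in replicate 2 and 1387 TPM in replicate 1, and 4 of the 5 were higher in replicate 2 with intervals apart, with Krt8 at 414 and 326 TPM in replicates 2 and 1 and Epcam, the exception, at 505 and 517 TPM in replicates 2 and 1. Smooth muscle and mesenchyme markers summed to 6254 and 6770 TPM, and 4 of the 5 were lower in replicate 2 with intervals apart. Among all genes with a mean of at least 5 TPM, 7.23% were higher and 17.9% lower with intervals apart. The marker counts are as deposited and were not made under the other scalings. Pancreas markers summed to 993 TPM in replicate 2 and 3.72 TPM in replicate 1, with Ctrb1 and Ins2 at 0 counts in replicate 1. The part of these cells in the members' difference was not tested. Embryo, collection day and library cannot be told apart in this design.

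Most members were expressed through protein-coding transcripts. The tables held 149 transcripts of the members. A protein-coding model led in 33 of 34 members, and in 20 the leading transcript held at least 90% of the gene's TPM in both libraries. Among the 22 members with several transcripts, the median share of TPM on protein-coding models was 96.0%, against 92.2% over 9606 detected protein-coding genes with several transcripts, and 7 of the 22, or 31.8%, were under 80%, against 30.7%. The leading transcript by TPM differed between libraries only for Elovl1, with Elovl1-207 in replicate 2 and Elovl1-203 in replicate 1. In replicate 1 these were at 47.1 and 48.2 TPM, with overlapping intervals. By posterior mean TPM the leading model of Srebf1 differed too, with Srebf1-204 in replicate 2 and Srebf1-201 in replicate 1.

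The members under 80% differed in the kind of model that held the rest. Acacb had 25.9% and 37.6% of its TPM on protein-coding models in replicates 2 and 1, and 74.1% and 62.4% on retained-intron models. By counts, 31.5% and 54.1% lay on protein-coding models in replicates 2 and 1. The leading model, Acacb-203, rested on 7.52 and 7.15 counts. The protein-coding models of Acacb alone were at 0.48 and 0.68 TPM, so 33 members were detected when coding models alone were counted. Lss had 52.1% and 46.0% on protein-coding models in replicates 2 and 1, with 33.2% and 37.6% on retained introns. Fasn had 64.1% and 67.0% on protein-coding models, with 35.9% and 33.0% on retained introns, yet 95.6% and 96.1% of its counts lay on protein-coding models. Short models gain TPM from few counts, and the same held for Srebf1, with 55.9% and 54.6% of TPM but 94.2% and 93.6% of counts on protein-coding models. For Hsd17b7 these shares were 66.8% and 66.6% of TPM and 92.4% and 92.5% of counts. Msmo1 was unlike these, with 60.1% and 60.7% of TPM and 67.8% and 68.3% of counts on protein-coding models, and its processed transcript Msmo1-206 held 36.5% and 35.5% of TPM. Ebp had 76.6% and 76.6% of TPM and 79.9% and 80.2% of counts on protein-coding models. Acly was divided between 2 coding transcripts, Acly-207 with 51.7% and 57.7% of TPM and Acly-203 with 41.1% and 39.3% in replicates 2 and 1. Dhcr7-210, a model subject to nonsense-mediated decay, held 1.56% of Dhcr7 TPM in replicate 2 and 9.64% in replicate 1. It rested on 14.83 and 87.85 counts in replicates 2 and 1, and its TPM intervals overlapped between the libraries. By posterior mean TPM the shares were 3.72% and 8.86%.

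**Figure D4:**
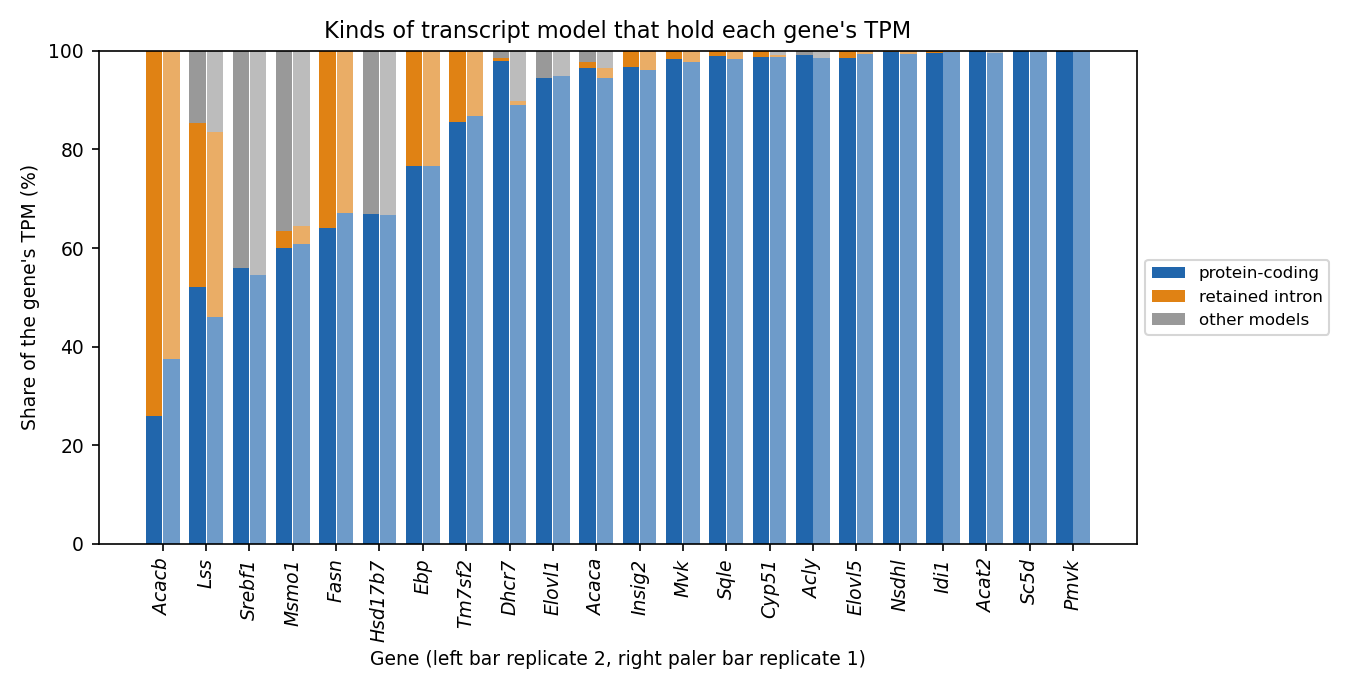
Share of TPM (%) on protein-coding, retained-intron and other transcript models for the 22 members with several transcripts, with replicate 2 as the left bar and replicate 1 as the right, paler bar. Acacb, Lss, Srebf1, Msmo1, Fasn, Hsd17b7 and Ebp lie under 80% in both libraries, and among these 7 the libraries lie closest for Ebp at 76.6% in each.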

How the data were processed

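Total RNA-seq of 2 libraries was analysed from tables of genes and transcripts. Per the deposited notes, alignment was to mm10 and annotation was GENCODE M4, library by library. No quantification tool or strand setting is given in the sources used here. The authors deposited expected counts (estimated reads), TPM and FPKM for genes and for transcripts, and each isoform's percent share. FPKM was not used. The bounds of the 95% interval of each TPM were deposited too and taken as scores. TPM is a share of all features, of which spike-ins took 10.4% in replicate 2 and 9.77% in replicate 1.

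GENCODE M21 on GRCm38 gave symbols, biotypes and coordinates, and 42462 of 43346 gene identifiers and all 149 member transcripts matched. The members and lists were chosen with earlier results of these data known. All members were named, and of the other pathway genes the highest and lowest of each list and those with intervals apart between libraries. Scd3, Scd4, Acsl5, Soat1 and Abca1 were named outside this rule. A further list is not reported here. The rule for a difference between libraries was a mean TPM of 5 or more, a change of 1 or more in log2(TPM + 1) and intervals apart. Counts of separate intervals without the size limit were added after the values were seen. Paralogs were compared by TPM ratio, and 1 was called higher when intervals were apart in both libraries. Alternatives were posterior mean TPM, rescaling over nuclear protein-coding genes, protein-coding transcripts alone, pseudocounts, thresholds, TMM factors (edgeR 4.0.16) and size factors (DESeq2 1.42.0) on rounded expected counts, spike-in scaling, and leaving out a library. No test between groups was possible with 1 group. Promoter motifs were counted in RefSeq windows by exact letters.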

Additional observations from a re-analysis of the deposited data

How the results depend on the processing

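Of the 34 detected members, 32 were at 5 TPM or more in both libraries and 33 were detected with protein-coding transcripts alone. No member differed by the rule on size under any alternative run. The sign of the median difference held as well, though it fell from 0.11 as deposited to 0.0127 after spike-in scaling. The order within each paralog pair also held, but Srebf2 and Srebf1 were not apart by their intervals. Rescaling TPM over nuclear protein-coding genes, which leaves out spike-ins and other features, moved the median of all members to 91.5 TPM, and the group medians to 91.3 for regulators, 113.8 for mevalonate enzymes, 73.0 for sterol enzymes, 67.4 for fatty acid synthesis and 100.6 for desaturation and elongation. Protein-coding transcripts alone gave 58.3 TPM for all members, 38.5 for regulators and 36.6 for fatty acid synthesis, and log2 ratios of 0.96 for Srebf2/Srebf1, 5.01 for Acaca/Acacb and 2.13 for Elovl1/Elovl6. Posterior mean TPM gave 0.0625 for Srebf2/Srebf1, 2.67 for Insig1/Insig2 and 3.29 for Acaca/Acacb, and a pseudocount of 1 gave 2.84 for Acaca/Acacb, 6.12 for Scd2/Scd1 and 2.16 for Elovl1/Elovl6. Spike-in scaling left 5 members higher and 3 lower in replicate 2 with intervals apart, and TMM and DESeq2 factors left 0 lower. Without 1 library, the median protein-coding share lay between 95.5% and 97.3%. Single members moved by more than their spread for 34 members under rescaling, 12 with protein-coding transcripts alone and 5 by posterior mean. The cause of these shifts was not tested except where the construction gives it. With 2 libraries the spread is poorly known. Intervals hold the error of counting and of assigning reads, and floors hold counting error alone. Amplified reads need not be separate molecules. A floor of 3 counts came to between 0.0195 and 0.123 TPM for the members, under every member's level. Protein identity between paralogs, planned as a description, was not run. No paired analysis was possible because the libraries form a single group.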

Other observations

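Genes that use the products of these pathways were detected as well. All 5 acyl-CoA synthetase genes, which activate fatty acids, were detected, from Acsl3 at 64.9 and 71.1 TPM in replicates 2 and 1 to Acsl6 at 1.42 and 1.94 TPM in replicates 2 and 1. Acsl5, known for its expression in enterocytes, had 68.2 and 66.3 TPM in replicates 2 and 1. None of the 5 had intervals apart between the libraries. Over genes with a mean of at least 5 TPM, 7.23% were higher and 17.9% lower in replicate 2 with intervals apart.

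All 8 genes of cholesterol storage, transport and export were detected, at a median of 9.32 TPM against 69.8 TPM for the 34 synthesis genes. They ran from Nr1h2, the gene of the oxysterol receptor LXR beta, at 55.4 and 54.5 TPM in replicates 2 and 1 to Soat2, the cholesterol acyltransferase of enterocytes and liver, at 3.65 and 2.38 TPM in replicates 2 and 1, with intervals apart. Soat1, the widely expressed acyltransferase, had 47.8 and 49.0 TPM in replicates 2 and 1. The efflux transporter gene Abca1, a known LXR target, had 3.41 and 4.03 TPM in replicates 2 and 1. Npc2, which carries cholesterol in lysosomes, was lower in replicate 2 with intervals apart, at 47.6 and 51.8 TPM in replicates 2 and 1.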
